A study of Homo sapiens with 60 samples.

Results

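Integrins are paired cell-surface receptors for the extracellular matrix, and laminin-332 is the trimeric laminin that anchors epithelial cells to their basement membrane. Transcripts of 7 integrin subunits (ITGA2, ITGA3, ITGA6, ITGAV, ITGB1, ITGB4 and ITGB6) and of 2 laminin-332 chains (LAMA3 and LAMB3) were followed in HT29 cells, a human colorectal adenocarcinoma line, exposed to herbal extracts. The genes were chosen by symbol: the 9 rows of the count table whose Ensembl identifier maps to these names, out of 60675 genes. The names were chosen with earlier results of these data known. All 9 passed the filter on low counts, which kept 16978 genes for testing.

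The study asked how decoctions of traditional medicine and their constituent herbs change the transcriptome of HT29 cells after 24 h. Ethanol extracts of 4 herbs and 4 formulas were each given at 3 doses beside a DMSO vehicle (0.1% in the sample labels, 2% in the design text; 3 libraries). Polygalae Radix was given at 380, 76 and 15.2 µg/mL and Aucklandiae Radix at 370, 74 and 14.8 µg/mL, with 2 libraries per dose. These 2 high doses lie below 500 µg/mL, where the design text sets the high dose at the IC20, the concentration that inhibits by 20%. Menthae Herba, Saposhnikoviae Radix, Saengmaek-san, Guibi-tang (each 3 libraries per dose), Soyo-san (2 libraries per dose) and Okbyeongpung-san (1 library per dose) were given at 500, 100 and 20 µg/mL. The doses are called high, medium and low below. HT29 is a single tumour-derived line, so all groups share its genetic background, and the labels do not say that replicate libraries came from separate cultures. The p-values are therefore measured against library-to-library spread that could be technical only.

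An integrin is a pair of an alpha and a beta subunit, and the pair sets the ligand. ITGB1 pairs with ITGA2 to bind collagen and with ITGA3 or ITGA6 to bind laminin. ITGB4 pairs only with ITGA6, and that receptor holds epithelial cells to laminin-332 through hemidesmosomes, junctions that tie the keratin skeleton to the basement membrane. ITGAV with ITGB6 binds and activates latent TGF-beta and is found mainly on epithelia. LAMA3 and LAMB3 encode the alpha and beta chains of laminin-332.

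Total expected counts, the read estimates per gene that RSEM gives, ran from 17079221 to 36796414 over the 60 libraries. The library with the lowest total (Saposhnikoviae Radix low replicate 2) was an outlier: its highest correlation with a replicate was 0.850, whereas all other replicated libraries reached 0.9946 or more. It was left out of the levels and tests, and its values are given at the end. Of 12 colonic epithelial markers, 8 had at least 10 CPM (counts scaled to library size) in the vehicle, whereas CDX1 (0.918 CPM), GPA33 (3.15), CDX2 (4.47) and CEACAM5 (7.54) were low. The summed level of 8 fibroblast markers was between 1.70 and 3.56 CPM over all libraries. That of 8 blood cell markers was between 980.5 and 1631 CPM. It came mostly from LYZ (977.7 to 1628 CPM), while 6 of the 8 stayed under 1 CPM in every library. Each extract has libraries of a named set (the prefix of the library name), and the vehicle has a set of its own, so in every comparison with the vehicle the extract and the set cannot be told apart. All such comparisons also share the same 3 vehicle libraries. Pairs of these differed more than most replicate pairs, with chi-square over degrees of freedom of 12.2 to 23.0. It was 2.18 to 3.05 for Menthae Herba low, and reached 21.6 for Guibi-tang low. The tests take the spread from all groups together, so a call against the vehicle could rest on too small a spread. The main comparisons below are therefore between doses of 1 extract, which share a set.

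In the human genome (GRCh38, GENCODE 29) the laminin chain genes lie on chromosome 18, 23689443 to 23956222 (LAMA3, ENSG00000053747, plus strand), and on chromosome 1, 209614870 to 209652466 (LAMB3, ENSG00000196878, minus strand). Both genes of the hemidesmosome receptor lie on a plus strand, ITGA6 (ENSG00000091409) on chromosome 2, 172427354 to 172506282, and ITGB4 (ENSG00000132470) on chromosome 17, 75721328 to 75757818. ITGA3 (ENSG00000005884) lies on chromosome 17, 50055968 to 50090481, and ITGA2 (ENSG00000164171) on chromosome 5, 52989326 to 53094779, both on the plus strand, and their partner ITGB1 (ENSG00000150093) on chromosome 10, 32900319 to 33005792, minus strand. ITGAV (ENSG00000138448, plus strand) and ITGB6 (ENSG00000115221, minus strand) lie on chromosome 2, at 186590065 to 186680901 and 160099666 to 160200313. Counts are sums over each gene's transcripts.

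Per kilobase of annotated exon, the vehicle cells held most ITGA6 (74.6 ± 3.27 CPM per kb, SD, n = 3), followed by ITGB1 (71.1 ± 5.98) and ITGB4 (63.5 ± 3.54). The libraries of neighbours in this order overlapped for these 3 genes. ITGA3 followed at 28.0 ± 0.604 CPM per kb and LAMB3 at 21.6 ± 0.276. Each length merges the exons of all annotated transcripts (9802 bases from 16 transcripts for ITGA3), so the order depends on these lengths too. ITGA2 (14.5 ± 1.62) and ITGAV (13.5 ± 1.03) overlapped as well. ITGB6 stood at 5.22 ± 0.383 and LAMA3 was lowest at 1.44 ± 0.0423 CPM per kb. The exon length of LAMA3, 14678 bases, includes the exons of its long form, so this level could differ if only the short form were counted. RNA from bulk libraries does not separate fewer cells carrying a transcript from less transcript per cell.

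All 9 genes were higher at the high dose of Aucklandiae Radix than at its low dose, and the laminin alpha chain LAMA3 rose most. Every high-dose library was above every low-dose library for each of the 9 genes. All 9 passed edgeR's quasi-likelihood test with Benjamini-Hochberg adjustment (adjusted p under 0.05, called changed from here on), in a comparison where 58.7% of all tested genes were called and 29.6% were called higher. The median log2 difference was 0.98 for the 9 genes and -0.018 for all tested genes. A change of at least 2-fold upward was called in 7.3% of all tested genes, and 4 of the 9 genes (LAMA3, LAMB3, ITGA3 and ITGA2) were in that class. Because the 9 genes were chosen with earlier results known, these shares describe the chosen genes only. Of 9 other integrin subunits tested, 4 were called higher and 3 lower.

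LAMA3 encodes the alpha-3 chain, which carries the integrin-binding domains of laminin-332. Its level was 21.2, 20.5 and 21.8 CPM in the vehicle libraries, 22.7 and 21.1 at the low dose of Aucklandiae Radix, 34.4 and 30.8 at the medium dose, and 199 and 218 at the high dose. The medium libraries lay above all low-dose and vehicle libraries, and the high-dose libraries lay far above those. High minus low was 3.25 ± 0.075 on the log2 scale (SE; 9.51-fold, edgeR adjusted p = 6.46e-33), a difference within the top 1.04% of all tested genes.

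LAMB3 encodes the beta-3 chain, known only from laminin-332. Its level was 102, 102 and 99.7 CPM in the vehicle, 101 and 104 at the low dose, 119 and 119 at the medium dose, and 407 and 431 at the high dose. High minus low was 2.03 ± 0.069 (4.09-fold, edgeR adjusted p = 2.8e-27). Both chains thus rose, but not by the same factor. The ratio of LAMA3 to LAMB3 in CPM was 0.209 ± 0.00858 in the vehicle (n = 3), 0.214 ± 0.0166 at the low dose, 0.275 ± 0.0209 at the medium dose and 0.497 ± 0.0117 at the high dose (n = 2 each), and the libraries of the 3 doses did not overlap.

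Because the laminin chains moved together, the 250 bases before their RefSeq start sites (GRCh38.p14) are shown, beside that of ITGA2 as a receptor gene that also rose by more than 2-fold. Capitals mark matches to TGANTCA, the AP-1 motif, searched on both strands. The LAMA3 window belongs to a start site 183577 bases inside the annotated gene, so it precedes the shorter transcripts. Gene-level counts do not separate these from the longer ones.
LAMA3 (chr18:23872770-23873019, plus strand): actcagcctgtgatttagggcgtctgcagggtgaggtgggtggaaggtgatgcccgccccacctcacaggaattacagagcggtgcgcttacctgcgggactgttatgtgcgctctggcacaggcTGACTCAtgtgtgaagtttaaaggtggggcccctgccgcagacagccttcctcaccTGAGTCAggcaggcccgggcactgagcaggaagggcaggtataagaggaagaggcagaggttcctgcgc
LAMB3 (chr1:209651375-209651624, minus strand): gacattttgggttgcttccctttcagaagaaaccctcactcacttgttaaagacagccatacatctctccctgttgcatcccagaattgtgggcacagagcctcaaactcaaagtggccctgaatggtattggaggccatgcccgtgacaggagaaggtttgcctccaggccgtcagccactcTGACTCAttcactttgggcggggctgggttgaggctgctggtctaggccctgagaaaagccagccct
ITGA2 (chr5:52989102-52989351, plus strand): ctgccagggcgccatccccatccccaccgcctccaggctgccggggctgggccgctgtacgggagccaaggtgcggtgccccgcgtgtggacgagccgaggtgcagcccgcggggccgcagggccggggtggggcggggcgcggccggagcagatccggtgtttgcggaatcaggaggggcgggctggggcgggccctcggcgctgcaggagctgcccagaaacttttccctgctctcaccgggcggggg
LAMA3 has matches at bases -125 to -119 and -69 to -63 from the start, and LAMB3 has a match at -67 to -61. The LAMB3 window shown is the only 1 of its 3 windows that holds the motif, and was chosen for it. The ITGA2 window has none. Windows were found for 7 of the 9 genes and not for ITGA3 and ITGB4, and LAMA3 and LAMB3 were the only 2 of the 7 with the motif, which 8.06% of all genes with windows hold. By window, 2 of the 12 windows of these genes hold it, against 6.57% of all 35116 windows. A further 12 motifs were searched on both strands, counted over the 7 genes beside the share of all genes with windows. The KLF letters CACCC were found in 6 (58.3%), the NF-kB motif in 6 (57.8%), the SP1 letters GGGCGG in 5 (46.2%) and the E-box CACCTG in 4 (20.6%). TATAAA was found in 2 (13%), and the TEAD letters GGAATG (14.3%), the antioxidant response element TGACNNNGC (13.2%) and the ETS letters CCGGAAG (10.2%) in 1 each. The FOXA letters TGTTTAC (3.66%), the CREB letters TGACGTCA (2.03%), the SMAD letters GTCTAGAC (0.231%) and the GRHL letters AACCGGTT (0.143%) were found in 0. Matches of different motifs can overlap, the search was chosen after the values were seen, and a match describes letters in the window only.

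Among the receptor subunits, ITGA3 and ITGA2 had larger log2 differences than their partner ITGB1. ITGA3, a laminin-332 receptor subunit, was at 279, 268 and 278 CPM in the vehicle, 251 and 256 at the low dose of Aucklandiae Radix, 330 and 306 at the medium dose, and 906 and 907 at the high dose. High minus low was 1.84 ± 0.051 (edgeR adjusted p = 2.2e-30). ITGA2, the collagen-binding subunit, was at 99.8, 123 and 121 CPM in the vehicle, 135 and 134 at the low dose, 157 and 154 at the medium dose, and 439 and 491 at the high dose. Its log2 difference was 1.79 ± 0.113 (3.47-fold, edgeR adjusted p = 7.59e-18). The common beta chain ITGB1 went from 439 and 431 CPM to 840 and 863, a log2 difference of 0.97 ± 0.059 (edgeR adjusted p = 2.31e-18). The ratio of ITGA3 to ITGB1 was 0.583 ± 0.0151 at the low dose and 1.06 ± 0.0189 at the high dose, and that of ITGA2 to ITGB1 was 0.308 ± 0.0021 and 0.546 ± 0.0329 (SD, n = 2).

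The 2 chains of the hemidesmosome receptor rose by similar amounts. ITGA6 was at 536 and 540 CPM at the low dose, 636 and 628 at the medium dose, and 945 and 1033 at the high dose (log2 difference 0.88 ± 0.062, edgeR adjusted p = 2.53e-16). ITGB4 was at 390 and 415, 466 and 457, and 775 and 817 CPM at the same doses (log2 difference 0.98 ± 0.079, edgeR adjusted p = 2.05e-14). The ratio of ITGB4 to ITGA6 was 0.749 ± 0.0292 at the low and 0.805 ± 0.0201 at the high dose. ITGB4 overlaps GALK1 on the opposite strand (5.92 CPM on average). The TGF-beta-activating pair rose least. ITGAV went from 130 and 134 CPM to 183 and 199 (log2 difference 0.53 ± 0.091, edgeR adjusted p = 2.34e-06), and ITGB6 from 27.8 and 27.2 CPM to 41.7 and 43.8 (0.64 ± 0.080, edgeR adjusted p = 4.17e-09).

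**Figure D1:**
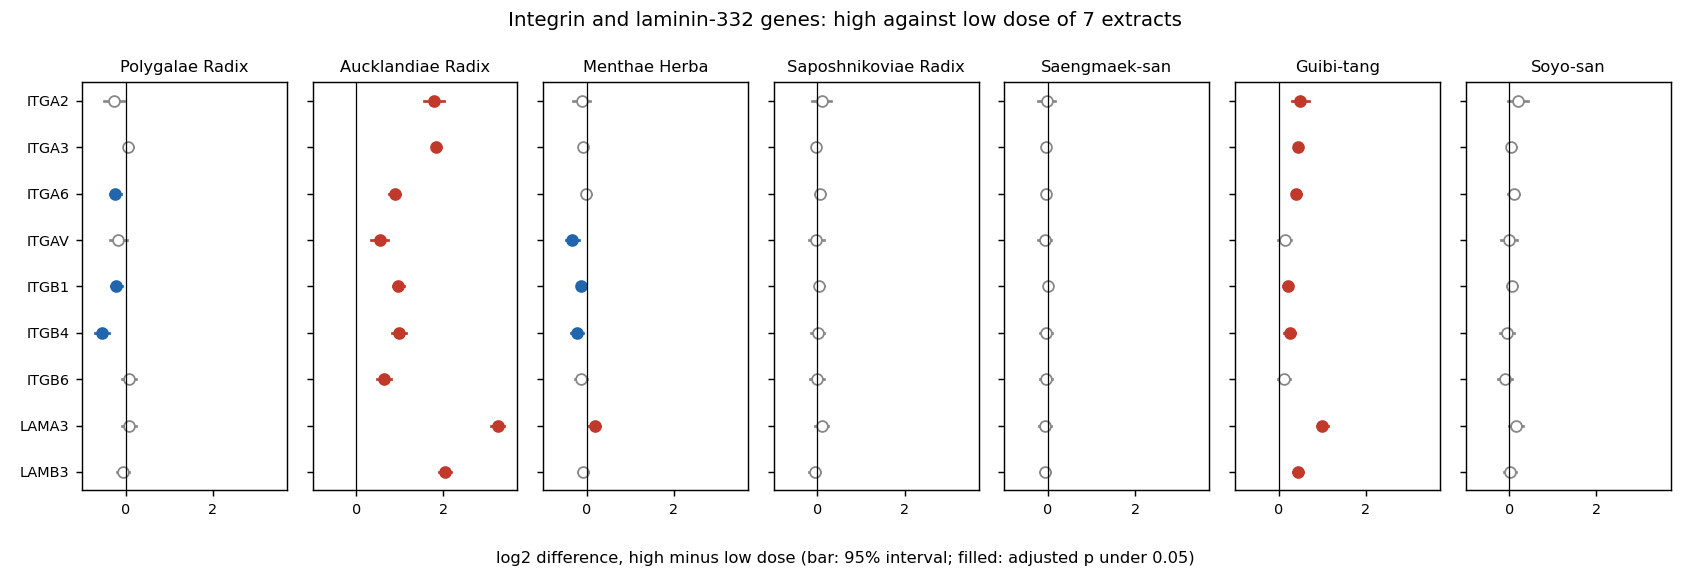
High minus low dose for each of the 9 genes (rows) in the 7 extracts with 2 or 3 libraries per dose; points are log2 differences, bars are 95% intervals, and filled points were called (edgeR adjusted p under 0.05), red where higher and blue where lower. All 9 points of Aucklandiae Radix lie to the right of 0, from 0.53 for ITGAV to 3.25 for LAMA3, and 7 of those of Guibi-tang are filled.

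At the medium dose of Aucklandiae Radix, 3 of the 9 genes were already above the low dose, in a comparison where 2.6% of all tested genes were called. They were LAMA3 (0.58 ± 0.078, edgeR adjusted p = 2.12e-06), ITGA3 (0.33 ± 0.050, adjusted p = 2.04e-05) and ITGA6 (0.23 ± 0.062, adjusted p = 0.0241). The call of ITGA6 was lost when any of the 4 libraries was left out (adjusted p between 0.123 and 0.199). For 5 others the medium libraries were above the low libraries but the test was not passed: ITGA2 and LAMB3 (both 0.21), ITGB4 (0.20), ITGB1 (0.19) and ITGB6 (0.04). ITGAV was at -0.02. Between the low dose and the vehicle, 0 of the 9 genes were called by edgeR, where 4.97% of all tested genes were, and 5 had an unadjusted p under 0.05. The log2 differences lay between -0.12 for ITGA3 and 0.25 for ITGAV, and DESeq2 called ITGAV alone.

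**Figure D2:**
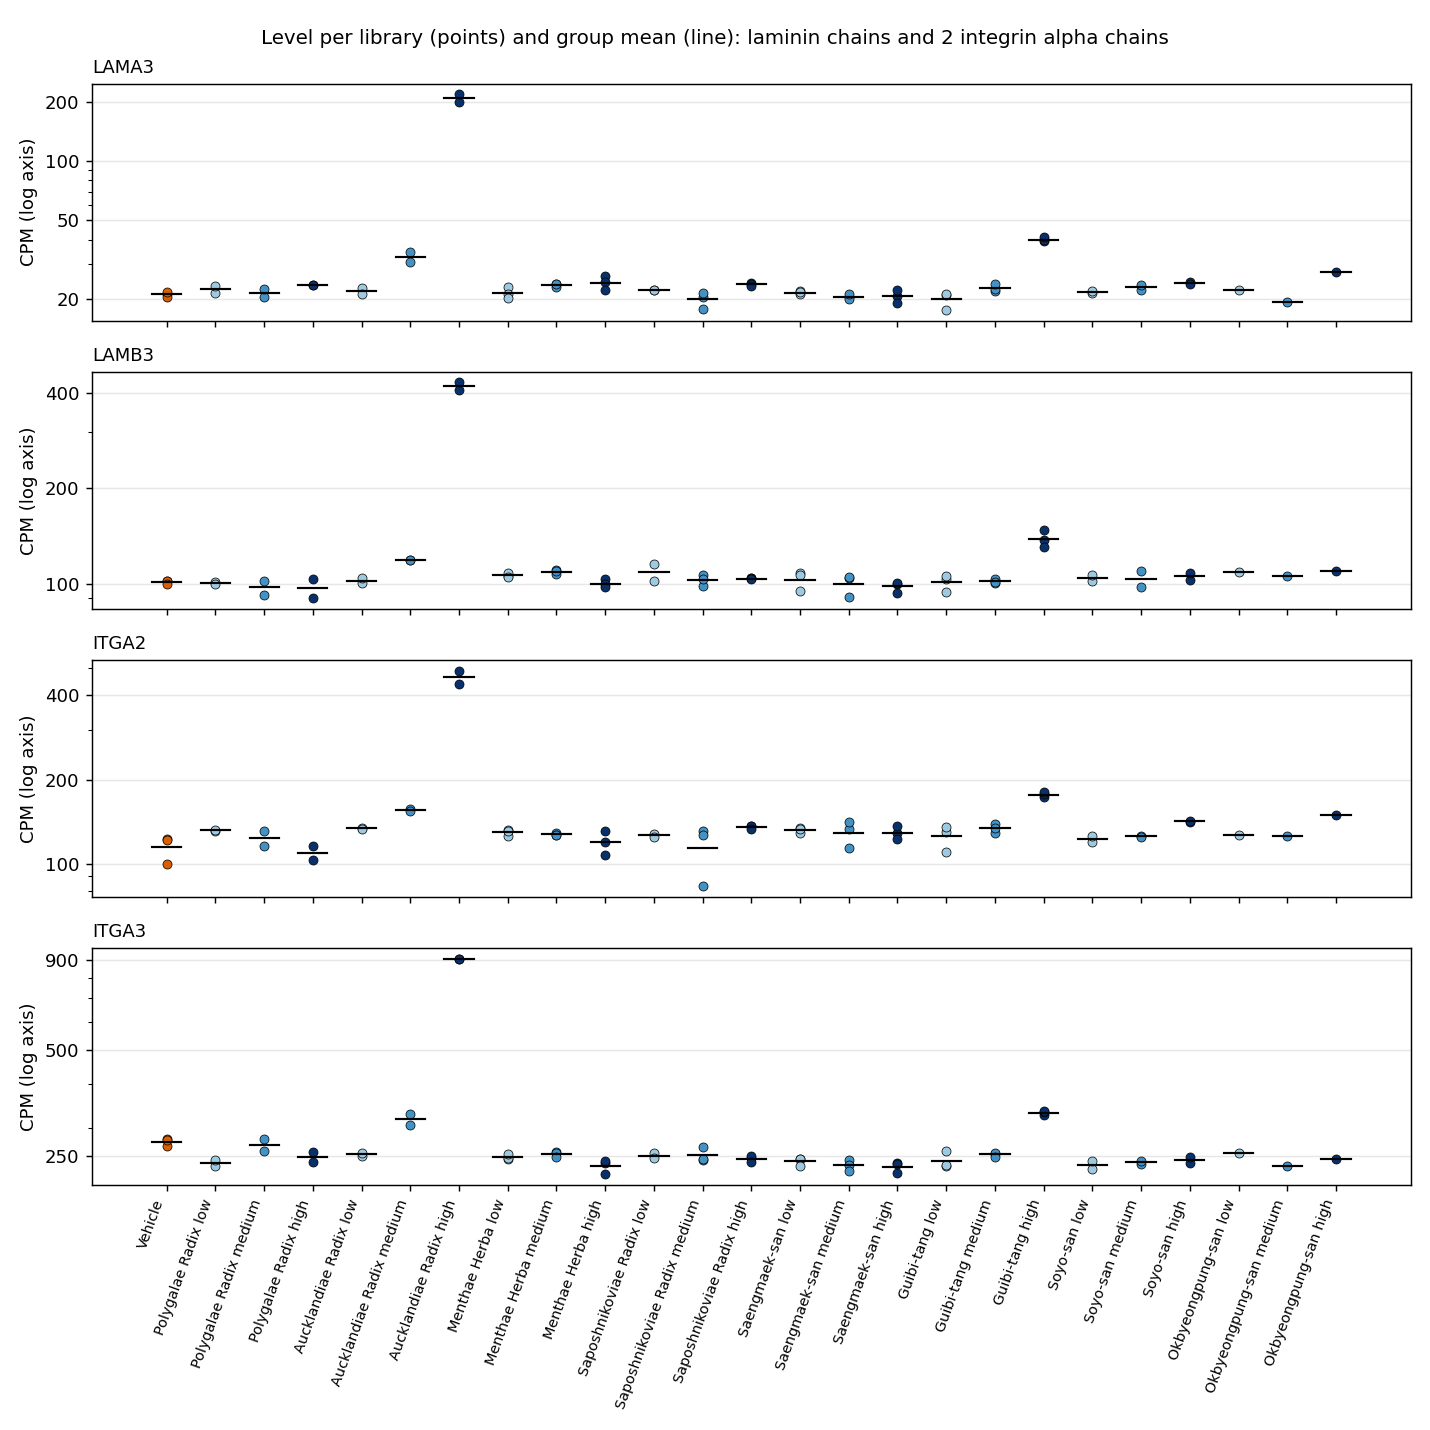
Levels (CPM, log axis) of LAMA3, LAMB3, ITGA2 and ITGA3 in every library (points) of the 25 groups, with the group mean as a line; orange is the vehicle and the blues darken from low to high dose, and the outlying library is not drawn. The high dose of Aucklandiae Radix is the highest group in all 4 panels, with LAMA3 at 199 and 218 CPM against 20.5 to 21.8 CPM in the vehicle, and the high dose of Guibi-tang is the next.

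Other measures moved with the high dose of Aucklandiae Radix. Mitochondrial transcripts made up 6.19% to 6.52% of counts there, against 9.46% to 12.3% in the vehicle. The summed level of 6 endothelial markers was 8.61 to 8.94 CPM there, in a range over all libraries from 1.02 to 8.94, and came mostly from PECAM1 (at most 8.33 CPM), while 4 of the 6 stayed under 1 CPM in every library. The part of either in the result was not tested.

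Guibi-tang is a formula whose traditional recipe holds Aucklandiae Radix and Polygalae Radix among other herbs, in amounts that the sources used here do not give. At its high dose 7 of the 9 genes were above the low dose, in a comparison where 17.9% of all tested genes were called and 8.84% were called higher. The median log2 difference was 0.40 for the 9 genes and -0.0026 for all tested genes. LAMA3 was at 21.1, 21.2 and 17.6 CPM at the low dose and at 39.1, 39.7 and 41.2 at the high dose, with no overlap. Its log2 difference was 1.00 ± 0.064 (2.00-fold, edgeR adjusted p = 2.28e-16), within the top 1.37% of all tested genes. LAMB3 went from 103, 106 and 94.6 CPM to 138, 148 and 131 (0.45, edgeR adjusted p = 3.27e-08).

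The receptor subunits followed with smaller differences. ITGA2 was at 130, 135 and 110 CPM at the low dose of Guibi-tang and at 173, 178 and 180 at the high dose (0.50, edgeR adjusted p = 7.22e-05). ITGA3 went from 259, 234 and 236 CPM to 327, 333 and 335 (0.45, adjusted p = 9.3e-12), and ITGA6 from 542, 521 and 476 to 678, 674 and 682 (0.40, adjusted p = 3.51e-08). ITGB4 (0.25, adjusted p = 0.00376) and ITGB1 (0.20, adjusted p = 0.0016) rose less, and the call of ITGB4 was lost without Guibi-tang low replicate 3 (adjusted p = 0.0789). For all 7 of these genes each high-dose library exceeded each low-dose library. ITGAV (0.14, adjusted p = 0.21) and ITGB6 (0.13, adjusted p = 0.202) did not pass. As with Aucklandiae Radix, the ratio of LAMA3 to LAMB3 was higher at the high dose (0.290 ± 0.0239 against 0.196 ± 0.00936, n = 3). That of ITGA3 to ITGB1 was also higher (0.673 ± 0.00339 against 0.569 ± 0.0400). For both ratios the libraries of the 2 doses did not overlap. In the vehicle, however, ITGA3 to ITGB1 was 0.647 ± 0.0674. Its libraries ran from 0.590 to 0.721, a range that holds all high-dose libraries of Guibi-tang (0.671 to 0.677). At the medium dose of Guibi-tang 0 of the 9 genes were called by edgeR, where 0.118% of all tested genes were, and 0 by DESeq2. LAMA3 stood at 0.19 (adjusted p = 0.543), and 1 of the 9 genes had an unadjusted p under 0.05.

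**Figure D3:**
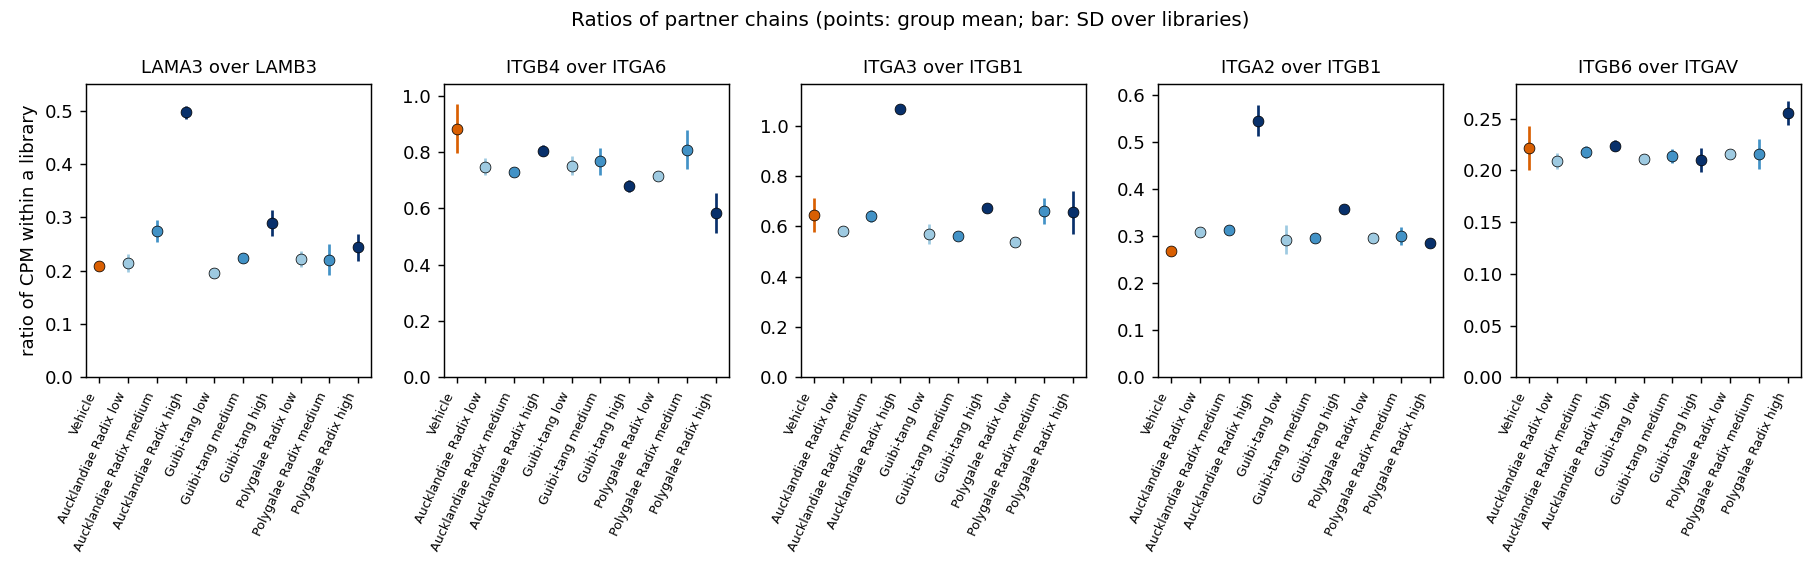
Ratios of CPM between partner chains, as the mean (points) and SD (bars) over the libraries of the vehicle (orange) and of 3 extracts by dose (blues, darker with dose). At the high dose of Aucklandiae Radix LAMA3 over LAMB3 was 0.497 and ITGA3 over ITGB1 was 1.06, and at the high dose of Polygalae Radix ITGB4 over ITGA6 was 0.584.

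ITGB4, the beta chain of the hemidesmosome receptor, was lowest at the high dose of Polygalae Radix. At that dose 3 of the 9 genes were called against the low dose, all lower. Since 29.4% of all tested genes were called and 16% were called lower, the share called is near the background. ITGB4 was at 378 and 371 CPM at the low dose, 380 and 350 at the medium dose, and 267 and 249 at the high dose. The high-dose libraries were the lowest, and high minus low was -0.54 ± 0.080 (edgeR adjusted p = 7.48e-07). ITGA6 went from 521 and 525 CPM to 420 and 466 (-0.24, adjusted p = 0.00261) and ITGB1 from 446 and 442 to 360 and 405 (-0.21, adjusted p = 0.00458). Without Polygalae Radix high replicate 2, ITGA6 (adjusted p = 0.106) and ITGB1 (adjusted p = 0.178) lost their calls. The ratio of ITGB4 to ITGA6 was 0.717 ± 0.0138 at the low dose and 0.584 ± 0.0711 at the high dose (n = 2). It was 0.808 ± 0.0692 at the medium dose (n = 2) and 0.883 ± 0.0877 in the vehicle (n = 3). ITGA2 went from 131 and 132 CPM to 103 and 116 and did not pass (-0.27, adjusted p = 0.0746). The laminin chains did not pass either: LAMA3 was at 22.3 ± 1.29 and 23.5 ± 0.173 CPM and LAMB3 at 101 ± 1.10 and 97.0 ± 9.52 CPM at the low and high doses. With library totals in place of TMM scaling, 1 of the 9 genes was higher (ITGA3, 0.15) and 1 lower (ITGB4), and ITGA6 and ITGB1 were not called. At the medium dose 2 genes were called where 4.95% of all tested genes were: ITGA3 higher (0.17, adjusted p = 0.0343) and ITGA6 lower (-0.21, adjusted p = 0.0381).

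At the high dose of Menthae Herba, a mint, 3 integrin subunits were lower and LAMA3 was slightly higher than at its low dose. These 4 of the 9 genes were called, where 23.5% of all tested genes were. ITGAV was at 132, 132 and 136 CPM at the low dose and at 113, 109 and 96.9 at the high dose (-0.33 ± 0.076, edgeR adjusted p = 0.000911). ITGB4 went from 394, 410 and 398 CPM to 376, 344 and 307 (-0.23, adjusted p = 0.00795), and ITGB1 from 457, 441 and 434 to 413, 421 and 385 (-0.13, adjusted p = 0.0493). The high-dose libraries were below the low-dose libraries for these 3 genes. For ITGAV and ITGB1 they overlapped those of the vehicle (102 to 119 and 386.5 to 454.5 CPM). Neither of these 2 genes was called against the vehicle. LAMA3 was at 22.9, 21.1 and 20.2 CPM and at 26.2, 24.3 and 22.2, so its libraries overlapped (0.18, adjusted p = 0.0435). The call of LAMA3 was lost with DESeq2 (adjusted p = 0.0517) and with library totals in place of TMM scaling (0.189), and that of ITGB1 when edgeR used DESeq2's size factors (0.0574). Without Menthae Herba high replicate 3, ITGB4 (0.121) and ITGB1 (0.267) were not called.

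**Figure D4:**
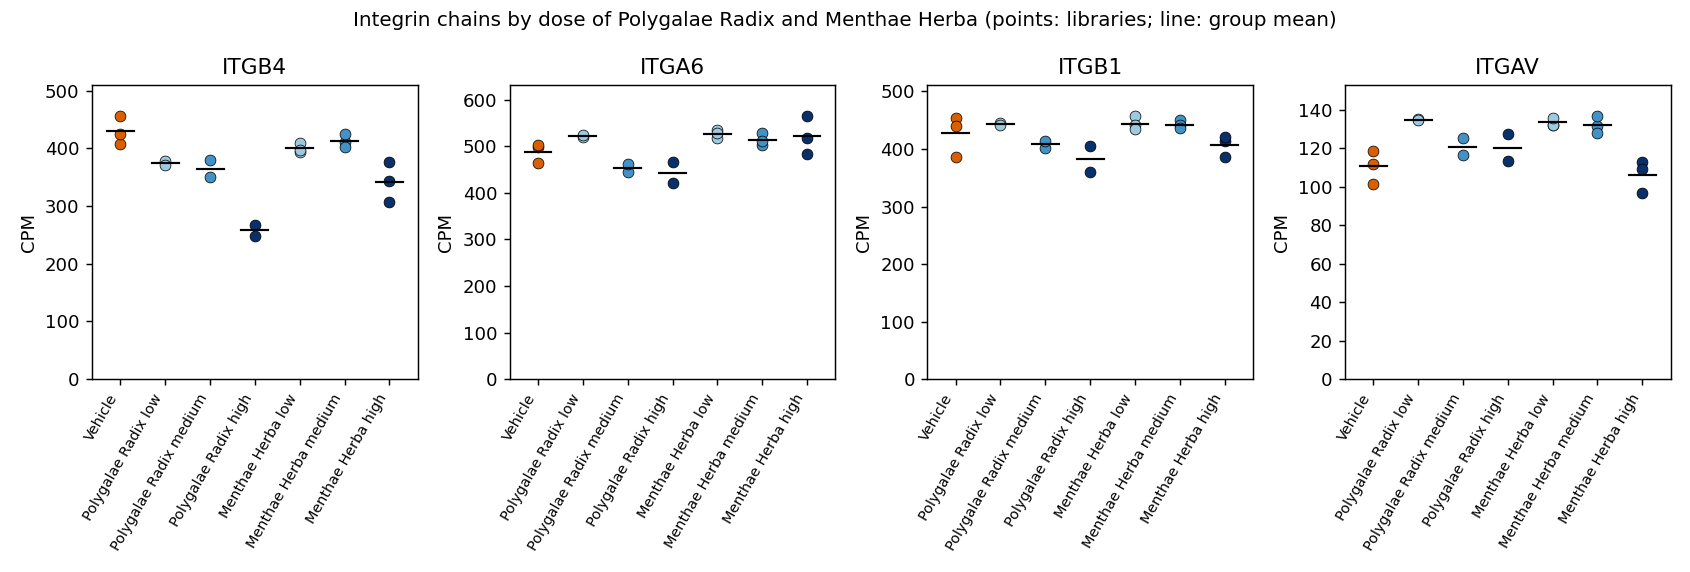
CPM of ITGB4, ITGA6, ITGB1 and ITGAV in each library (points, with the group mean as a line) of the vehicle (orange) and of the 3 doses of Polygalae Radix and Menthae Herba (blues, darker with dose). ITGB4 at the high dose of Polygalae Radix (267 and 249 CPM) is the lowest group of its panel. ITGAV lies between 96.9 and 113 CPM at the high dose of Menthae Herba, against 132 to 136 CPM at the low dose. Its vehicle libraries lie between 102 and 119 CPM.

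Saposhnikoviae Radix, Saengmaek-san and Soyo-san gave no call for the 9 genes between low and high dose. In each, 0 of 9 were called by edgeR, 0 had an unadjusted p under 0.05, and 0 were called by DESeq2. The shares of all tested genes called were 0.289%, 0.854% and 2.49%. The log2 differences lay between -0.07 and 0.10 for Saposhnikoviae Radix, -0.07 and 0.00 for Saengmaek-san, and -0.10 and 0.21 for Soyo-san. In Soyo-san, ITGA2 (0.21) was called when only the libraries of the sets compared entered the fit (adjusted p = 0.0201). Over all 7 extracts, medium minus low gave 5 calls in 63 tests, the 5 named above, where 1.1% of all tests were called.

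Extracts of the same set were also compared directly. At the high doses, Polygalae Radix was below Aucklandiae Radix for all 9 genes, in a comparison where 58.3% of all tested genes were called and 29.4% were called lower. The log2 differences ran from -3.15 for LAMA3 (edgeR adjusted p = 1.43e-32) to -0.47 for ITGB6 (adjusted p = 2.32e-06). The doses, 380 and 370 µg/mL, are not the same. With the outlying library in the fit, 7 of the 9 were called. Saengmaek-san at 500 µg/mL was below Guibi-tang at 500 µg/mL for 7 of the 9 genes (12.7% of all tested genes were called, 6.37% lower), with LAMA3 at -0.96 (adjusted p = 4.43e-15) and ITGA3 at -0.51 (adjusted p = 6.49e-13). Menthae Herba at 500 µg/mL was below Saposhnikoviae Radix at 500 µg/mL for 4 genes (16.1% of all tested genes were called, 8.03% lower): ITGAV at -0.36, ITGB4 at -0.28, ITGB6 at -0.23 and ITGB1 at -0.15.

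The difference between the dose responses of such pairs was tested as an interaction. High minus low was smaller in Polygalae Radix than in Aucklandiae Radix for 9 of 9 genes (46.6% of all tested genes were called), and for 6 with the outlying library in the fit. It was smaller in Saengmaek-san than in Guibi-tang for 6 of 9 (7.21% called), of which ITGB4 lost its call when any of 7 single libraries was left out. Between Menthae Herba and Saposhnikoviae Radix 0 of 9 were called by edgeR, 3 had an unadjusted p under 0.05 and 0 were called by DESeq2, where edgeR called 3.59% of all tested genes.

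Against the vehicle, the 7 high doses gave 35 calls in 63 tests (28% of all such tests were called), 27 higher and 8 lower. Aucklandiae Radix gave 9 higher (62% of all tested genes were called), with LAMA3 at 3.30 on the log2 scale, 9.85-fold. Guibi-tang gave 8 higher, all but ITGB4 (29.4% called), from 0.21 for ITGB1 to 0.92 for LAMA3. Polygalae Radix gave ITGB6 higher (0.34) and ITGB4 (-0.74), ITGB1 (-0.16) and ITGA3 (-0.14) lower (36.5% called). Menthae Herba gave LAMA3 higher (0.19) and ITGB4 (-0.33) and ITGA3 (-0.23) lower (28.2% called).

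Among the low doses against the vehicle, ITGA3, ITGAV and ITGB6 were called most often. The 7 low doses gave 16 calls in 63 tests, where 9.96% of all such tests were called. ITGA3 was lower in 6 of 7 extracts, with log2 differences from -0.22 to -0.12 over all 7. ITGAV was called higher in 5 of 7 (0.27 to 0.34) and ITGB6 in 4 of 7 (0.26 to 0.30), and ITGA6 in Saengmaek-san (0.15, adjusted p = 0.0303). These comparisons share the vehicle libraries and the set difference, so the repeats are not independent of each other. Without Vehicle replicate 3 the number of calls fell from 16 to 8. The medium doses gave 17 calls in 63 tests (9.79% called), 6 of them in Aucklandiae Radix, all higher. Without Vehicle replicate 3 these fell to 9, and without Vehicle replicate 1 to 10.

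**Figure D5:**
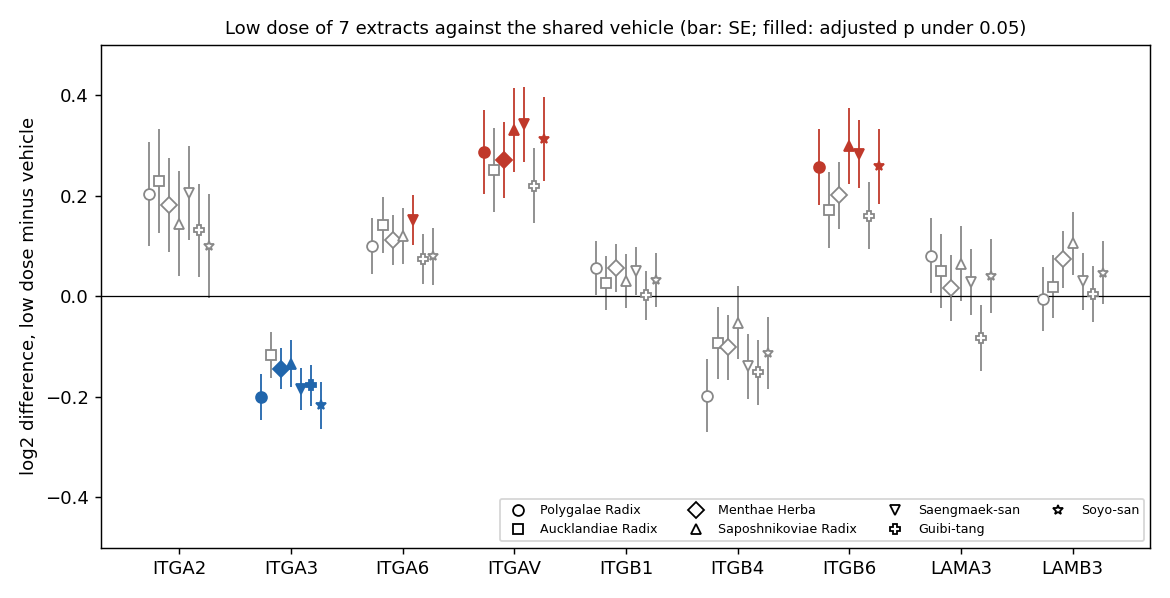
Log2 difference of low dose minus vehicle (vertical axis) for each of the 9 genes and 7 extracts (symbols); bars are the SE, and filled symbols were called (edgeR adjusted p under 0.05), red where higher and blue where lower. ITGA3 lies below 0 in all 7 extracts (-0.22 to -0.12), and all 7 comparisons share the same 3 vehicle libraries.

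Ordered over all 25 groups, the high dose of Aucklandiae Radix had the highest mean level of each of the 9 genes. The next group was the high dose of Guibi-tang for ITGA2, ITGA3, ITGA6, LAMA3 and LAMB3, and the medium dose of Aucklandiae Radix for ITGB1 and ITGB4. The lowest group was the high dose of Polygalae Radix for ITGA2 (109 CPM), ITGA6 (443), ITGB1 (383), ITGB4 (258) and LAMB3 (97.0). For LAMB3 its libraries (104 and 90.3 CPM) lay on both sides of those of the vehicle (99.7 to 102). ITGAV was lowest at the high dose of Menthae Herba (106 CPM), ITGA3 at the high dose of Saengmaek-san (233) and ITGB6 in the vehicle (24.5). For ITGAV the libraries of that Menthae Herba group (96.9 to 113 CPM) overlapped those of the vehicle (102 to 119). LAMA3 was lowest at the medium dose of Okbyeongpung-san (19.2 CPM), a group of 1 library. The highest group mean was 10.9 times the lowest for LAMA3, 4.32 times for LAMB3, 4.26 times for ITGA2, 3.88 times for ITGA3 and 3.09 times for ITGB4. It was 2.23 times for ITGA6, 2.23 times for ITGB1, 1.80 times for ITGAV and 1.74 times for ITGB6.

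Across the 25 group means the 9 genes ran alike, as a description over groups that share sets and libraries. Pearson's r of log2 levels between pairs of the 9 genes was 0.592 to 0.984 over all groups (median 0.866, 36 pairs). Without the 3 Aucklandiae Radix groups it was -0.142 to 0.920 (median 0.549), with 2 negative pairs. Among 10557 genes, the one most like ITGA2 was ITGB1 (r = 0.984). Without the Aucklandiae Radix groups (22 groups left) it was ATP7A (0.928), and r with ITGB1 was 0.883. The gene most like LAMA3 was MET, the hepatocyte growth factor receptor (0.989, and 0.922 without those groups). ITGA3 was most like RHBDF2 (0.992) and EPAS1 (0.989), and both remained its nearest genes without those groups (0.890 and 0.894). ITGB4 was most like NT5E (0.972), and, without those groups, COL17A1 (0.955), another hemidesmosome component. ITGA6 was most like the desmosomal cadherin DSG2 (0.975), ITGAV was most like SEL1L (0.940) and ITGB6 was most like IL6ST (0.902). Without those groups DSG2 stayed nearest to ITGA6 (0.939). ITGAV was then most like ADAM10 (0.953) and ITGB6 most like ZNF417 (0.838).

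Other genes of these pathways were followed as lists. For Aucklandiae Radix high against low, 5 of 8 hemidesmosome and laminin-binding partners rose and 3 fell (list median 0.65), among them SDC4 (1.41), PLEC, the plectin that links ITGB4 to keratin filaments (1.28, from 1069 to 2594 CPM), and COL17A1 (0.88). Of 26 tested focal adhesion genes (29 listed), 18 rose, 5 fell and 3 did not pass (median 0.35). TNS3, a tensin of focal adhesions, fell by 1.35. Of 6 tested other laminin chains (10 listed) 4 rose, with LAMC1 at 1.27 and LAMB1 at 0.45. Of 9 tested other integrin subunits (19 listed), 4 rose and 3 fell, with ITGB7 going from 5.28 to 38.2 CPM (2.85). Of 11 tested genes of laminin processing and TGF-beta activation (12 listed) 5 rose and 5 fell, with TGFB1 going from 23.4 to 80.4 CPM (1.78). These counts stand beside the 58.7% of all tested genes called.

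For Guibi-tang, 3 of 26 focal adhesion genes rose and 2 fell, 3 of 8 hemidesmosome partners rose and 2 fell, and 3 of 6 other laminin chains rose and 1 fell, where 17.9% of all tested genes were called. For Polygalae Radix, where 29.4% of all tested genes were called and 16% were called lower, 14 of 26 focal adhesion genes fell and 5 rose (median -0.29), with TLN1, the talin that activates integrins, at -1.21. Of the 8 hemidesmosome partners 3 fell and 1 rose, with COL17A1 at -0.98 and BCAM at -0.37. For Menthae Herba, where 23.5% of all tested genes were called, 4 of 8 hemidesmosome partners fell and 1 rose. Of 6 other laminin chains 4 fell and 0 rose, whereas of 26 focal adhesion genes 6 rose and 3 fell (median 0.018).

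Okbyeongpung-san had 1 library per dose and was not tested, so its values have no replicate check. At high, medium and low dose, LAMA3 was at 27.3, 19.2 and 22.1 CPM, ITGA2 at 149, 126 and 126, and ITGAV at 143, 133 and 135. Relative to the vehicle mean, its 3 libraries lay between 0.856-fold (ITGA3, medium) and 1.32-fold (ITGB6, medium) over the 9 genes.

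The outlying library, Saposhnikoviae Radix low replicate 2, was far below its 2 group mates in most of the 9 genes. LAMA3 was at 2.01 CPM against 22.1 and 22.1, ITGAV at 11.8 against 132 and 146, ITGA6 at 77.1 against 514 and 546, and ITGA2 at 27.6 against 125 and 128. LAMB3 (116 CPM against 102 and 115) and ITGA3 (235 against 246 and 255) were close to the mates. With this library in the fit, the calls of Aucklandiae Radix high against low went from 9 to 7 of 9, with ITGAV (adjusted p = 0.325) and ITGB6 (0.0546) lost, and those of Guibi-tang from 7 to 3. The library belongs to neither extract, and the fit takes its spread from all groups together. For Aucklandiae Radix the log2 differences were 0.52 for ITGAV and 0.62 for ITGB6 with it, and 0.53 and 0.64 without it.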

How the data were processed

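RNA sequencing libraries of HT29 cells (60) were made from poly(A) RNA with a directional kit and sequenced as 100 bp paired ends, per the labels' protocols. The values are expected counts per gene, deposited by the authors in 1 table; FastQC 0.11.9, Trim Galore 0.6.5, STAR 2.7.3a, RSEM 1.3.3 and GRCh38 are named in the submitters' processing notes. Which annotation release and strand setting were used for counting is not stated there. Of the deposited values 10% were not whole, and all were rounded. A wortmannin control named in the design text was not analysed here.

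Libraries were grouped by the sample labels. The edgeR 4.0.16 quasi-likelihood test (R 4.3.3) was fitted with TMM scaling to 56 libraries with 1 coefficient per group, without the outlying library and Okbyeongpung-san. The filterByExpr filter kept 16978 genes, 34 residual degrees of freedom remained, p-values were adjusted by Benjamini-Hochberg over all genes kept within each of 41 comparisons, and adjusted p under 0.05 was a call. The script was tested on simulated data. A standard error is the log2 difference over the root of F. Likeness is Pearson's r of log2(CPM + 0.5) group means over genes with a mean of at least 5 CPM. Gene symbols and exon lengths came from GENCODE 29, which holds 94% of the table's genes. The members and lists were chosen with earlier results of these data known. List genes are named by the size of their change among those called in a list, and some are not reported here. Same-numbered replicates were taken as paired where every correlation was over 0.1 and there were 3 pairs, which only Menthae Herba medium against low met. Comparisons with 2 pairs could not meet this rule. Among these, every correlation was over 0.1 in Soyo-san high against vehicle (0.246 to 0.347) and Polygalae Radix high against Aucklandiae Radix high (0.127). Alternatives were a replicate block, DESeq2 1.42.0, other scalings, no filter, fits to single sets, the outlying library kept, and each library left out. Total counts limit precision through counting error, which the fit includes.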

Additional observations from a re-analysis of the deposited data

Results flagged for a closer look

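The difference in dose response (high minus low) between extracts of the same set was tested as an interaction in edgeR's quasi-likelihood fit, with Benjamini-Hochberg adjustment over all tested genes, and 15 gene results passed. For Polygalae Radix against Aucklandiae Radix the log2 differences were -3.18 for LAMA3 (adjusted p = 4.65e-26), -2.09 for LAMB3 (8.41e-22), -2.06 for ITGA2 (1.59e-14), -1.78 for ITGA3 (4.51e-24), -1.52 for ITGB4 (3.54e-15), -1.18 for ITGB1 (7.47e-16), -1.12 for ITGA6 (1.77e-14), -0.70 for ITGAV (1.59e-05) and -0.56 for ITGB6 (8.5e-05). ITGB4, ITGA6 and ITGB1 fell in the first extract and rose in the second; the other 6 rose in the second and did not pass in the first. In that interaction 46.6% of all tested genes were called. With the outlying library in the fit, ITGA6 (adjusted p = 0.0806), ITGAV (0.431) and ITGB6 (0.319) were not called.

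For Saengmaek-san against Guibi-tang the differences were -1.07 for LAMA3 (adjusted p = 2.27e-11), -0.53 for ITGA2 (0.00659), -0.52 for LAMB3 (9e-06), -0.50 for ITGA3 (2.86e-08), -0.45 for ITGA6 (1.62e-05) and -0.30 for ITGB4 (0.0382), where 7.21% of all tested genes were called. The call of ITGB4 was lost when any of 7 single libraries was left out (adjusted p from 0.0507 without Guibi-tang high replicate 3 to 0.188 without Guibi-tang low replicate 3) and with only the sets compared in the fit (0.0722). With the outlying library in the fit, ITGA2 (0.976), ITGA6 (1), ITGB4 (0.62) and LAMA3 (0.345) were not called. These 6 genes rose in Guibi-tang and did not pass in Saengmaek-san. Among the 36 values of the untested libraries (Okbyeongpung-san and the outlying library), 0 exceeded the vehicle mean by 1.5-fold.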

How the results depend on the processing

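For Aucklandiae Radix high against low, 9 of 9 genes were called whichever of its libraries was left out, with DESeq2, with library totals and with a replicate block, and 7 with the outlying library in the fit. Keeping that library (57 libraries) left 1 call for Polygalae Radix, 0 for Menthae Herba, and 3 for Guibi-tang high against low. Against the vehicle at the high dose it left 1 for Polygalae Radix, 3 for Guibi-tang, 1 for Saengmaek-san, and 0 each for Saposhnikoviae Radix and Soyo-san. It left 7 for Polygalae Radix against Aucklandiae Radix (ITGAV and ITGB6 lost), 0 for Menthae Herba against Saposhnikoviae Radix and 3 for Saengmaek-san against Guibi-tang at the high dose, 6, 1 and 2 for their interactions, 1 for medium against low, 0 for medium against vehicle and 1 for low against vehicle. With it, Saposhnikoviae Radix low minus vehicle turned to -0.18 for ITGAV (adjusted p = 0.695) and -0.11 for ITGB6 (0.722).

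Without the low-count filter there were 2 calls for Menthae Herba high against low, 5 for Saengmaek-san high against vehicle and 1 for the interaction of Menthae Herba and Saposhnikoviae Radix. With only the sets compared in the fit there were 2 for Menthae Herba and 1 for Soyo-san high against low, 2 for Polygalae Radix high against vehicle, 2 for medium against low and 10 for low against vehicle. The causes were not tested. Library totals in place of TMM, chosen after seeing the data, moved the median of all genes by -0.105 for Aucklandiae Radix high against low, 0.127 for Polygalae Radix high against vehicle, 0.214 for Polygalae Radix against Aucklandiae Radix and 0.176 for their interaction. The splits of higher and lower calls became 1 and 1 for Polygalae Radix and 0 and 5 for Menthae Herba high against low, 3 and 1 for Polygalae Radix high against vehicle, and 15 and 4 for low against vehicle.

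Leaving out 1 library at a time gave 1 to 3 calls for Polygalae Radix, 2 to 3 for Menthae Herba, 6 to 7 for Guibi-tang, 9 for Aucklandiae Radix and 0 for Saposhnikoviae Radix, Saengmaek-san and Soyo-san high against low. Against the vehicle it gave 3 to 5 for Polygalae Radix, 9 for Aucklandiae Radix, 8 for Guibi-tang, 2 to 4 for Menthae Herba, 2 to 4 for Saposhnikoviae Radix, and 1 to 4 each for Saengmaek-san and Soyo-san. The direct comparisons gave 9, 2 to 4 and 6 to 7, the interactions 9, 0 and 5 to 6, medium against low 3 to 5, medium against vehicle 9 to 21 and low against vehicle 8 to 20. Where 1 library remained in a group, its spread was taken from the other groups.

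With a replicate block the high against low counts were 3, 9, 4, 0, 0, 7 and 0 in the order Polygalae Radix, Aucklandiae Radix, Menthae Herba, Saposhnikoviae Radix, Saengmaek-san, Guibi-tang and Soyo-san, and 4, 9, 3, 4, 4, 8 and 5 against the vehicle. The block gave 9, 4 and 7 for the direct comparisons, 9, 0 and 7 for the interactions, 6 for medium against low, 19 for medium against vehicle and 16 for low against vehicle. The replicate numbers did not pair the samples outside Menthae Herba medium against low, where 0 genes were called either way.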
